A study of Mus musculus with 16 samples.

Results

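Transcripts that differed between Tsc1-deficient and wild-type naive T cells in the same direction in resting CD4 cells, in stimulated CD4 cells and in resting CD8 cells are described here. All 16 arrays of the series were used. The genotype difference, Tsc1-deficient minus wild-type on the log2 scale, was averaged over the 3 conditions for each of 17097 genes, with 1 probe set per gene. A gene is called where limma's adjusted p for that average was under 0.05, and shared where its 3 differences also had 1 sign. Of the 17097 genes, 2768 were shared.

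Naive T cells were sorted from C57BL/6 mice and measured on single-colour Affymetrix arrays. The 6 groups were Tsc1-deficient and wild-type CD4 cells taken without stimulation (0 h) or after 4 h on plate-bound antibodies to CD3 and CD28, with 3 arrays per group, and Tsc1-deficient and wild-type CD8 cells without stimulation, with 2 arrays per group. The labels name neither the Cre driver nor the deleted exons, and do not tell whether replicate arrays stem from different mice, so p-values here reflect only array-to-array variation that may be technical. One sentence of the treatment text names another deficient strain, whereas each title and genotype entry names Tsc1, and these were followed.

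The TSC complex, of which Tsc1 is the scaffold subunit, inhibits the GTPase Rheb and so restrains mTORC1, the kinase complex that couples nutrients and growth factors to anabolism. mTORC1 is recruited to the lysosome by Rag GTPases and is known to drive lipid synthesis through SREBP factors, amino acid metabolism through ATF4, and ribosome production. In naive T cells Tsc1 is known to hold cells small, out of the cell cycle and viable until antigen is met.

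Tsc1 itself was shared and lower. Its brightest probe set had 6.42, 6.54 and 6.5 in deficient CD4 cells at 0 h, against 7.25, 7.39 and 7.29 in wild-type cells. After 4 h the deficient arrays had 6.22, 6.46 and 6.5 and the wild-type arrays 7.54, 7.37 and 7.45, and in CD8 cells the deficient arrays had 6.36 and 6.41 and the wild-type arrays 6.99 and 6.88. Deficient arrays were below wild-type arrays in every condition, and the average difference was -0.81 ± 0.06 (SE), with an adjusted p of 7.32e-08 by limma. The other 2 probe sets had average differences of -0.08 and -0.03 (adjusted p 0.712 and 0.897 over all probe sets), and their position relative to the deletion is not known here. The lineage labels held: Cd4 was 8.89 to 9.04 in resting CD4 cells and at most 5.13 in CD8 cells, where Cd8a was 11.34 to 11.68, and Cd3e was 8.30 to 10.17 on all arrays. Some CD8 gene signal was present in resting CD4 cells, where Cd8b1 was 8.01 to 8.67, against 12.33 to 12.48 in CD8 cells. There Cd8a was 6.11 to 6.99 in wild-type and 5.55 to 5.59 in deficient CD4 cells, without overlap. Gapdh control probe sets of the 3' and 5' ends differed by 0.96 on deficient CD4 4 h replicate 1 and by 0.64 for the second replicate of deficient CD8 cells, while the other 14 arrays ranged between 0.02 and 0.40.

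Called genes numbered 3033 on the average, 17.7% of those tested, with 1755 higher (10.3%) and 1278 lower (7.47%). Of these, 2768 had 1 sign in all 3 conditions, 1611 higher (9.42% of genes tested) and 1157 lower (6.77%), while 265 did not. Most shared differences were modest. The absolute average difference had a median of 0.38 among the higher genes, with quartiles of 0.28 and 0.57, and a median of 0.33 among the lower genes, with quartiles of 0.26 and 0.45. An average of at least 2-fold was reached by 126 shared genes, 110 higher and 16 lower. At 4-fold the numbers were 13 and 1, the single lower gene being Igfbp4. Without the 2 arrays with high Gapdh differences, 1880 genes were shared and higher and 1077 shared and lower, and 2305 of the 2768 genes were among them. The split leaned on single CD8 arrays: 58.2% of shared genes were higher, but 51.1% without deficient CD8 replicate 1 and 65.4% without deficient CD8 replicate 2.

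A stricter reading asks for a call in each condition by itself. Called alone, 3.96% of genes were higher and 1.87% lower in CD4 cells at 0 h, 5.59% and 3.86% in CD4 cells at 4 h, and 3.64% and 2.18% in CD8 cells. All 3 calls with 1 sign were made for 257 genes, 197 higher (1.15%) and 60 lower (0.351%). That number was 136 without wild-type CD8 replicate 1 and 165 without wild-type CD8 replicate 2, of which 132 and 161 were among the 257. The share of higher genes grew with the number of conditions called alone. It was 50.9% of the 975 shared genes called in no condition alone, 57.4% of 1081 called in 1, 65.5% of 455 called in 2 and 76.7% of the 257 called in 3. Deficient and wild-type arrays were fully separate in every condition, in 1 direction, for 1164 genes, 6.81% of those tested, 702 higher and 462 lower. At least 2-fold in each of the 3 conditions, 41 called genes were higher and 1 lower, the heparan sulfate sulfotransferase gene Hs3st3b1.

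The 3 comparisons share no arrays, so each condition could be read for genes chosen on the other pair, apart from the common variance estimate. The labels do not tell whether CD4 arrays at 0 h and 4 h share cells. The summed neutrophil marker signal, described below, was higher in deficient cells in every condition. The conditions may therefore not be independent of each other, and agreement between them is not independent support. Of 1397 genes called higher on the mean of both CD4 comparisons, 1249 (89.4%) were higher in CD8 cells and 427 (30.6%) were called higher there, with 0 called lower. Of 854 called lower on that mean, 734 (85.9%) were lower in CD8 cells, 200 (23.4%) were called lower and 1 was called higher. Over all genes, 49.0% were higher in CD8 cells, 3.64% were called higher there and 2.18% called lower. The median difference of the higher genes was 0.42 on the CD4 mean and 0.36 in CD8 cells. For the lower genes the medians were -0.36 and -0.30. The 1290 genes called higher on the mean of the 2 resting comparisons had a median difference of 0.46 there and of 0.29 at 4 h. At 4 h 85.6% of them were higher, 453 (35.1%) were called higher and 18 called lower. The 833 lower ones had medians of -0.41 in the pair and -0.22 at 4 h, with 80.9% lower. Of these, 228 (27.4%) were called lower at 4 h and 16 called higher. Over all genes, 49.8% were higher at 4 h, 5.59% were called higher and 3.86% called lower. Resting CD4 cells, read last, showed 93.4% of 1255 genes higher and 90.7% of 921 lower. In those directions 493 (39.3%) and 183 (19.9%) were called, and 0 and 1 in the other. Over all genes, 52.5% were higher there, 3.96% were called higher and 1.87% called lower. The higher genes had medians of 0.46 in the pair and 0.36 in resting CD4 cells, and the lower genes -0.42 and -0.23. The median was thus smaller in size in every condition left out, not only at 4 h. The called numbers in the condition left out depended on single arrays: 627 in all for CD8 cells was 241 without wild-type CD8 replicate 1 and 325 without wild-type CD8 replicate 2, and 676 for resting CD4 cells was 444 without deficient CD4 0 h replicate 1.

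**Figure D1:**
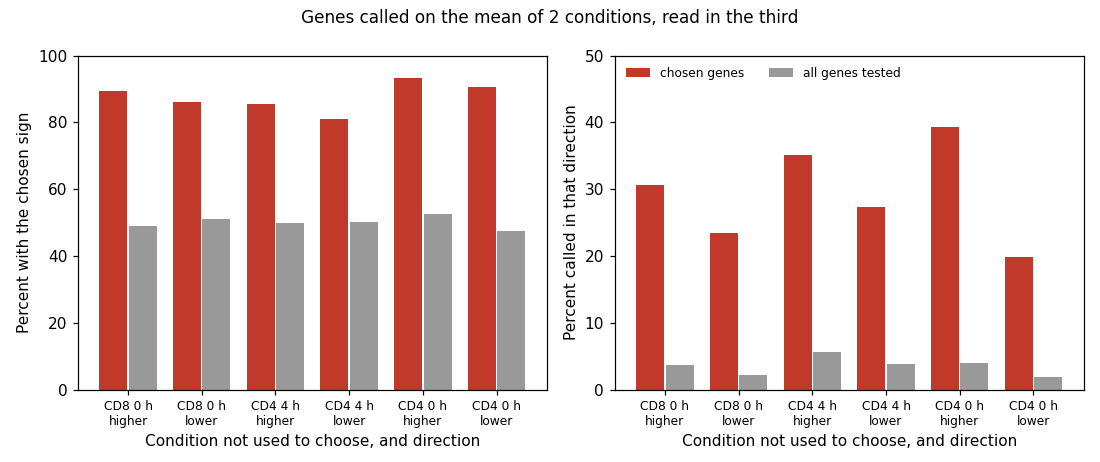
Genes called on the mean of 2 conditions, read in the third. The left panel gives the percent with the chosen sign and the right panel the percent called in that direction in the condition named under each pair of bars, for the chosen genes (red) and all genes tested (grey). Between 80.9% and 93.4% of the chosen genes kept their sign, against about 50% of all genes.

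Taken pair by pair, both resting comparisons called 461 genes in common, all 461 in the same direction, which is 46.2% of the CD4 calls and 46.3% of the CD8 calls. Resting and stimulated CD4 cells had 442 in common, 428 the same way and 14 opposite, which is 42.9% of the resting and 26.5% of the stimulated calls. Stimulated CD4 and resting CD8 cells had 383 in common, 374 the same way and 9 opposite, or 23.1% and 37.6%. Across all 17097 genes, which are not independent, the differences correlated at 0.62, 0.51 and 0.45 in the same order.

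Of the genes that rose, 15 lead by the smallest of their 3 differences among shared genes with separate arrays and a signal above the table median of 3.36. First was Rragd, the Rag GTPase D that helps hold mTORC1 at the lysosome. It had 6.84, 6.77 and 7.01 in deficient CD4 cells at 0 h, against 4.64, 3.72 and 3.65 in wild-type cells. After 4 h it had 6.63, 6.84 and 6.73 in deficient cells and 3.92, 3.72 and 3.58 in wild-type cells, and 6.93 and 6.33 in deficient CD8 cells against 3.72 and 4.02 in wild-type CD8 cells. Every deficient array lay above every wild-type array, whatever the condition. The differences were 2.87 ± 0.21, 2.99 ± 0.21 and 2.76 ± 0.26 (SE), and the average was 2.88 ± 0.13, a 7.34-fold rise (limma, adjusted p = 4.95e-10). Wild-type signals near the table median may be close to background, so the size of that fold is uncertain. A second, dim probe set of Rragd differed by 0.14 on average (adjusted p = 0.41 over all probe sets), and with the probe sets of a gene averaged the difference was 1.51.

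Abcb1a, which encodes the efflux pump P-glycoprotein, rose most of all on the average. It had 8.62, 8.47 and 7.93 in deficient CD4 cells at 0 h, against 4.64, 4.96 and 4.53 in wild-type cells. At 4 h the values were 8.29, 8.32 and 7.71 in deficient cells and 4.59, 4.32 and 4.35 in wild-type cells. Deficient CD8 cells had 9.22 and 8.57 and wild-type CD8 cells 6.32 and 6.44, a higher wild-type signal than in CD4 cells. The genotypes were far apart in each condition, with differences of 3.63, 3.69 and 2.52 and an average of 3.28 ± 0.13, or 9.71-fold (adjusted p = 9.38e-11), and a second probe set gave 3.59.

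Acot7, an acyl-CoA thioesterase, had 7.88, 7.40 and 7.35 in deficient CD4 cells at 0 h, against 5.32, 5.22 and 5.17 in wild-type cells. It had 7.58, 7.11 and 6.88 in deficient cells at 4 h, against 4.87, 5.30 and 4.45 in wild-type cells, and 8.28 and 7.72 in deficient CD8 cells, against 5.32 and 5.60 in wild-type ones. The lowest deficient value was thus above the highest wild-type value of any condition. Its 3 differences were close to each other at 2.31, 2.31 and 2.54 (average 2.39 ± 0.13, adjusted p = 4.73e-09). Pcsk1, a proprotein convertase best known from endocrine cells, differed by 2.61, 2.22 and 2.55, with wild-type values of 2.54 to 3.24, below the table median. Bhlhe40, a transcription factor that T cells induce on activation, rose by 1.95 ± 0.13 on average. It had 6.24, 6.78 and 6.48 in deficient resting CD4 cells, against 4.25, 4.49 and 4.74 in wild-type cells. At 4 h it had 7.55, 8.38 and 7.45 in deficient cells, against 6.05, 6.36 and 6.24 in wild-type cells, so the resting deficient values lay in the range of stimulated wild-type cells or above it.

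Cd200r4, a CD200 receptor family member, rose by 1.96 ± 0.11 on average, and Ms4a6d, a membrane-spanning 4A family member, by 1.77 ± 0.16. Jchain, known for joining polymeric immunoglobulins in plasma cells, had 7.60, 7.56 and 8.92 in deficient resting CD4 cells, against 6.20, 5.97 and 6.14 in wild-type cells. At 4 h it had 7.60, 7.91 and 8.49 against 6.13, 6.49 and 5.78, and in CD8 cells 7.38 and 8.13 against 6.10 and 5.92. Its average was 1.85 ± 0.19. Its highest deficient arrays were replicate 3 in both CD4 conditions and replicate 2 in CD8 cells, as for the neutrophil markers below. Wild-type arrays did not have this order. If replicates of the same number share cells, the precision for Jchain is overstated. S100a6, a calcium-binding protein of memory T cells among others, averaged 1.67 ± 0.15. The cell cycle genes Ube2c, Mki67 and Rrm2 and the neutrophil marker genes Ngp, Camp and S100a9 complete the 15. S100a9 had differences of 1.80, 2.89 and 1.71. The next genes by rank were Birc5, with a smallest difference of 1.49, and Ifit1bl2, with 1.45, against 1.52 for Ms4a6d, the last inside.

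**Figure D2:**
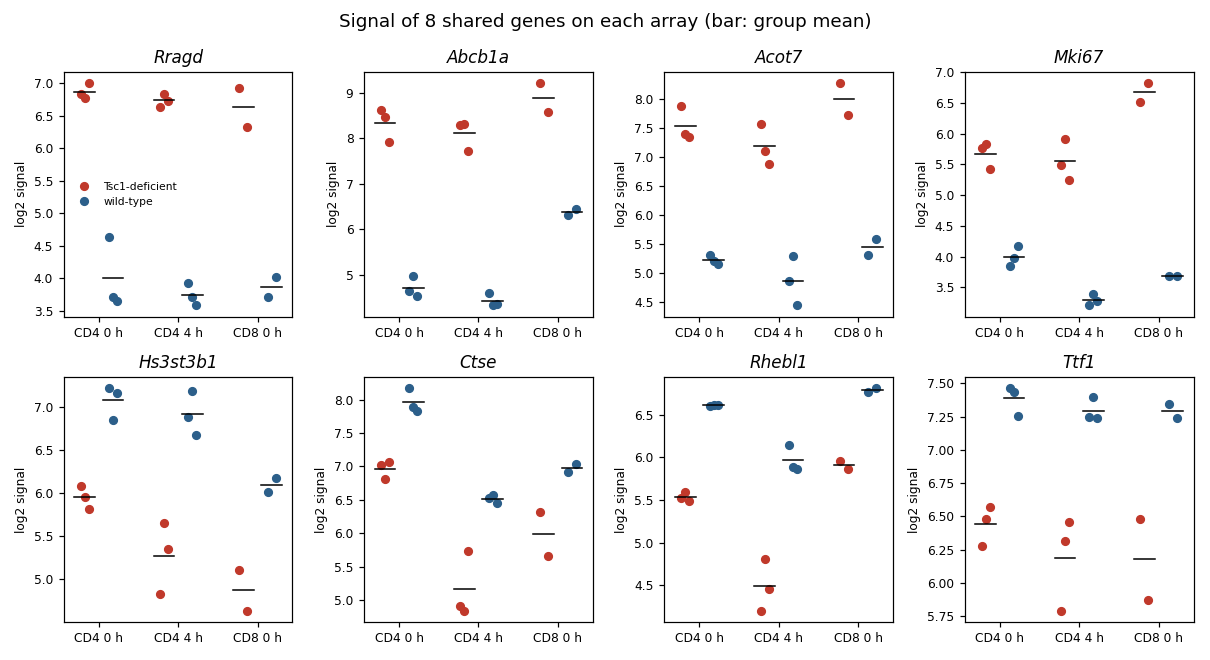
Log2 signal of 8 shared genes on each array. Red points are Tsc1-deficient and blue points wild-type arrays (3 each in CD4 cells, 2 each in CD8 cells), bars are group means, and each panel has its own axis. In each of these genes the 2 genotypes are apart in all 3 conditions.

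Genes that fell had smaller differences. Hs3st3b1 had 6.08, 5.96 and 5.82 in deficient CD4 cells at 0 h, against 7.22, 6.85 and 7.17 in wild-type cells. At 4 h it had 4.82, 5.65 and 5.35 in deficient cells and 6.89, 7.19 and 6.68 in wild-type cells, and 5.11 and 4.63 in deficient CD8 cells against 6.01 and 6.18 in wild-type CD8 cells. Deficient arrays were lower throughout, with an average of -1.33 ± 0.12 (adjusted p = 6.43e-07). Its 3 dimmer probe sets gave -0.63, -0.26 and -0.26, so the size depends on the probe set, and with its probe sets averaged the difference was -0.62. Ctse, the aspartic protease cathepsin E, differed by -0.99, -1.35 and -0.99 (average -1.11 ± 0.12, adjusted p = 8.20e-06). The cathepsin genes Ctsl, Ctsb, Ctsd, Ctsa, Ctsz and Ctss, all in the lysosome list below, were shared in the other direction.

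Igfbp4, which encodes a secreted protein that binds IGFs and is abundant in naive T cells, had the largest fall. It had 9.43, 9.06 and 9.28 in deficient CD4 cells at 0 h, against 11.64, 11.36 and 11.48 in wild-type cells. In CD8 cells deficient arrays had 6.16 and 6.18 and wild-type arrays 10.75 and 10.47, whereas at 4 h the deficient values of 6.73, 5.83 and 5.76 were close under the wild-type values of 7.29, 6.92 and 6.99. The differences, -2.24 ± 0.20, -0.96 ± 0.20 and -4.44 ± 0.24, were unequal (F test among conditions, limma, adjusted p = 9.78e-05). The average differences of its 5 further probe sets were -1.04 to -2.90, although 1 of them differed by 0.15 at 4 h.

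Rhebl1, a GTPase close to Rheb, had 5.53, 5.60 and 5.48 in deficient CD4 cells at 0 h, against 6.60, 6.61 and 6.62 in wild-type cells, with differences of -1.07, -1.47 and -0.88. Gprasp1, a sorting protein for G protein-coupled receptors, differed by -1.33, -0.85 and -1.14. Sirt5, a mitochondrial protein deacylase, differed by -0.95, -0.86 and -1.06, although its 4 h signal was low in both genotypes, at 2.32 to 3.09 in deficient and 3.15 to 3.66 in wild-type cells. The adhesion protein gene Amigo2 averaged -1.11 ± 0.12, the tetratricopeptide repeat gene Ttc28 -1.03 ± 0.09, the Rab27 effector gene Sytl2 -1.10 ± 0.13, and Frat2, whose product binds GSK3, -0.91 ± 0.13. The transcriptional regulator genes Gtf2ird1 and Sfmbt2 each averaged -0.97 ± 0.09, Mturn averaged -1.0 ± 0.12 and Prrg1 -0.91 ± 0.14. The next genes by rank were Nsg2 and Bicral, each with a smallest difference of -0.69, against -0.74 for Sfmbt2, the last inside.

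**Figure D3:**
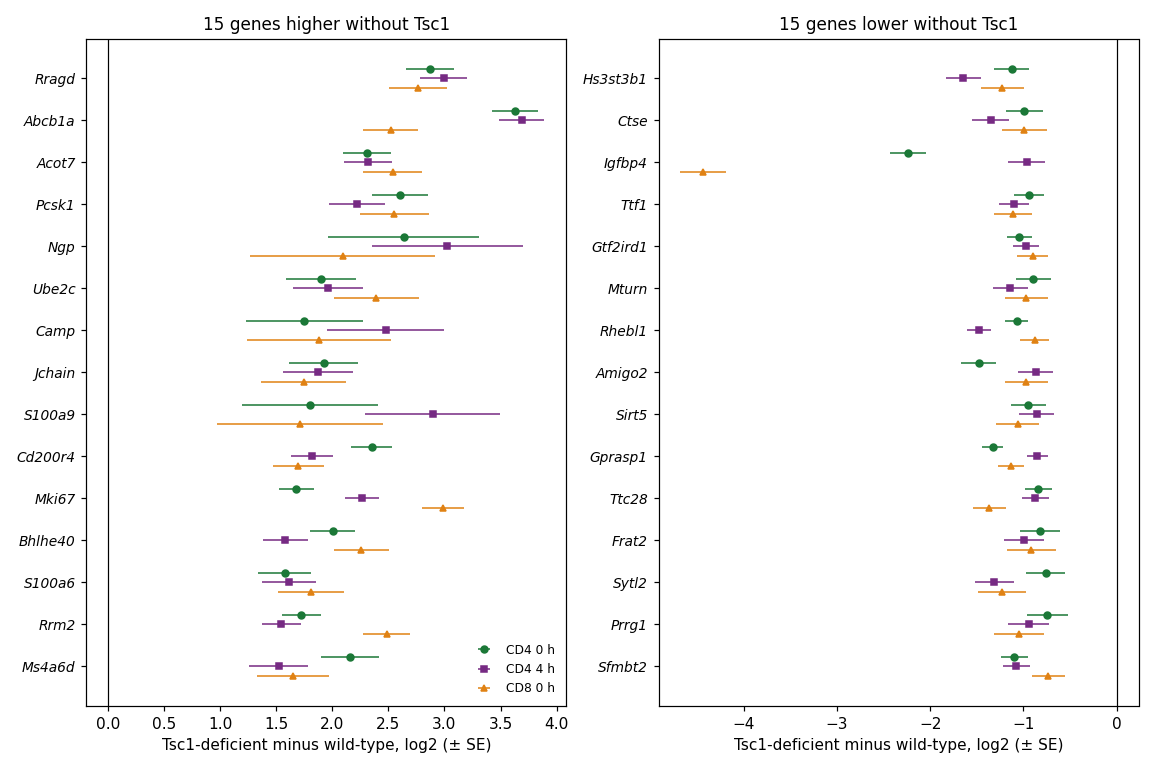
Genotype differences of the 15 genes that rose (left) and the 15 that fell (right) by rank, in log2 units with SE, for CD4 cells at 0 h (circles), CD4 cells at 4 h (squares) and CD8 cells at 0 h (triangles). All points lie on 1 side of 0 by the rule of choice, and the 3 points spread most in Igfbp4, Mki67, S100a9 and Abcb1a, of which Igfbp4 and Mki67 passed the F test among conditions.

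Ttf1, an RNA polymerase I termination factor, differed by -0.94, -1.10 and -1.11 by its brighter probe set, with 6.28, 6.48 and 6.57 in deficient resting CD4 cells against 7.46, 7.44 and 7.26 in wild-type cells. Its other probe set gave 0.05 on average (adjusted p = 0.753 over all probe sets), and both averaged gave -0.50. The same averaging gave -0.64 for Sfmbt2 and -0.31 for Tsc1. In the gene order of RefSeq's GRCm38.p6 table, Ttf1 is the 6th measured gene after Tsc1 on the same chromosome. Of the 40 measured genes nearest to Tsc1, 20 on each side, 3 were shared and higher (7.5%, against 9.42% of all genes) and 7 shared and lower (17.5%, against 6.77%), a neighbourhood chosen after the values were seen. Among the 30 ranked genes as a whole, 25 were called in each condition alone, 2 passed the F test, and 13 had further probe sets. Of those 22 further probe sets, 21 had the same sign on average, 18 were called in the same direction and 0 in the other.

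Neutrophil genes stood out among markers of other cells. Ngp, Camp, S100a9 and S100a8 averaged 2.59 ± 0.42, 2.04 ± 0.33, 2.14 ± 0.38 and 2.22 ± 0.40, with adjusted p of 0.000286 to 0.000803 by limma. None of these 4 was called in all 3 conditions. Ngp had 5.32, 5.12 and 7.69 in deficient CD4 cells at 0 h, against 3.16, 2.30 and 4.77 in wild-type cells. It had 6.01, 5.76 and 7.41 at 4 h in deficient cells, against 3.06, 3.30 and 3.74 in wild-type cells, and 5.63 and 6.90 in deficient CD8 cells, against 3.45 and 4.90 in wild-type ones. Replicate 3 was highest of its group in each CD4 group, and replicate 2 in each CD8 group. The SE and p-values above count CD4 arrays at 0 h and 4 h as independent. If replicates of the same number share cells, the precision for these genes is overstated. The summed linear signal of 10 measured neutrophil markers was 371, 299 and 1307 in deficient CD4 cells at 0 h, against 149, 124 and 291 in wild-type cells. At 4 h it was 538, 375 and 1222 in deficient cells and 118, 95.7 and 153 in wild-type cells, and 424 and 914 in deficient CD8 cells against 130 and 343 in wild-type ones. In each condition the deficient arrays were above the wild-type arrays of their condition. Of the 10 markers 6 were shared and higher, while Elane, Csf3r and Cxcr2 differed by 0.03, 0.00 and 0.00. In bulk cells, more cells of a type and more RNA per cell cannot be told apart.

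Of 16 monocyte, macrophage or dendritic cell markers 2 were shared and higher (Mpeg1 and Ccr2; 5 without the 2 arrays with high Gapdh differences), against 9.42% of all genes, with summed signals of 691 to 876, 429 to 524 and 590 to 710 in deficient cells, against 578 to 662, 326 to 384 and 574 to 710 in wild-type cells, for CD4 0 h, CD4 4 h and CD8. Of 12 B cell markers 3 were shared and higher, namely Cd79b, Cd74 and H2-Aa, with sums of 763 to 1161, 568 to 768 and 948 to 1040 in deficient cells, against 675 to 810, 379 to 495 and 724 to 845 in wild-type cells. The Mpeg1 call was lost in 11 of 27 alternatives, with adjusted p up to 0.164, and the H2-Aa call in 5, and with probe sets averaged Ccr2 differed by 0.34. Pax5, Fcer2a and Cr2 averaged -0.03, -0.09 and -0.06. Of 10 NK or NKT cell markers Gzma and Klra8 were higher and Prf1 lower, and of 10 regulatory T cell markers Nrp1 was higher (1.57 ± 0.14) and Capg lower (-0.45 ± 0.08), while Foxp3 averaged 0.24 without a call. The summed signal of the regulatory T cell markers was 1098 to 1308, 1073 to 1299 and 1471 to 1611 in deficient cells, against 1047 to 1141, 882 to 1089 and 1162 to 1265 in wild-type cells, so the ranges were apart in CD8 cells and overlapped in both CD4 conditions. The wild-type sums were higher in CD8 cells than in resting CD4 cells, and Il2ra was 2.66 to 3.06 in CD8 cells, below the table median. In CD8 cells the sum may therefore not track regulatory T cells. CD8 lineage genes Crtam and Runx3 were lower among 5 (40%, against 6.77% of all genes), with member averages of -0.42 to 0.23. The immature thymocyte genes Mns1 and Themis were higher among 8 (25%, against 9.42% of all genes). That list had a median average of -0.01 and a range of -0.29 to 0.96, and Themis had 8.95 to 9.66 on every resting array of either genotype. Thy1 was higher among 10 general T cell genes (10%), whose median average was -0.02. Of these calls, those of Crtam, Runx3 and Themis were lost in 4, 1 and 2 of 27 alternatives. No CD4 lineage, gamma delta T cell, erythroid or platelet marker of the 3, 2, 5 and 5 measured was shared, although Hba-a1 averaged 0.90 ± 0.35 (adjusted p = 0.0928). The summed signal of the 10 general T cell genes was 24178 to 24900, 10651 to 11766 and 24724 to 24986 in deficient cells, against 23151 to 23458, 13792 to 16040 and 21983 to 22210 in wild-type cells, for the conditions in the same order. Whether the neutrophil, myeloid, B cell or regulatory T cell marker signals take part in the results that follow was not tested.

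The gene lists that follow are read against 9.42% of all genes shared and higher, 6.77% shared and lower, and a median average of -0.00. By the naming rule, up to 4 members with the largest shared differences are given per list. Members named beyond these were chosen after their values were seen.

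Controls of mTORC1 were shared and higher in 9 and lower in 3 of 30 measured genes, with a median average of 0.19. The list's median was 0.21 in CD4 cells at 0 h, 0.03 at 4 h and 0.21 in CD8 cells. Among upstream Rag components, Rragd was followed by Rragc (0.45), by Flcn (0.58), the folliculin GTPase-activating protein for RagC and RagD, and by the folliculin partner Fnip1 (0.78 ± 0.10). Genes of inhibitors of the complex were shared and higher too. Castor2, of the arginine sensor family, had 6.11, 6.07 and 6.35 in deficient CD4 cells at 0 h, against 5.58, 5.34 and 5.21 in wild-type cells. Deficient CD8 cells had 6.30 and 6.63 and wild-type CD8 cells 4.60 and 4.97, and the CD8 difference of 1.68 ± 0.16 was larger than the CD4 differences of 0.80 and 0.50 (F test, adjusted p = 0.0142). A second Castor2 probe set gave 0.88, the 2 dimmest gave -0.01 and -0.09, and all averaged gave 0.44. The stress-induced inhibitors Sesn2 and Ddit4 averaged 0.71 and 0.72, and Sesn3 0.24. Of the kinase complexes themselves, Rptor averaged 0.28 and Mtor -0.18, and Rictor, the scaffold of mTORC2, -0.40. Rheb averaged -0.11 without a call, in contrast to Rhebl1, at -1.14 ± 0.08.

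Lysosome genes rose broadly. Of 37 measured hydrolases, membrane proteins and transporters, 26 were shared and higher and 1, the sulfatase Ids, lower (-0.43). The median was 0.43 on average and 0.40, 0.41 and 0.45 in CD4 cells at 0 h, CD4 cells at 4 h and CD8 cells. Of the 37, 11 were called higher in every condition. The cysteine protease cathepsin L, Ctsl, had 7.95, 7.85 and 7.92 in deficient CD4 cells at 0 h, against 6.45, 6.54 and 6.65 in wild-type cells. Stimulated, it had 8.30, 9.04 and 8.80 in deficient and 7.62, 7.67 and 7.48 in wild-type cells, and in CD8 cells 8.37 and 7.58 in deficient against 7.04 and 7.04 in wild-type ones. The genotypes did not overlap, and the average was 1.14 ± 0.11 (adjusted p = 1.95e-06). Scpep1, a serine carboxypeptidase, averaged 1.14 ± 0.08, the alpha-galactosidase Gla 1.10 ± 0.13, and the membrane protein Lamp2 1.06 ± 0.07. Lamp2 differed by 1.18 and 1.51 at rest in CD4 and CD8 cells and by 0.49 at 4 h (F test, adjusted p = 0.0155). With its probe sets averaged, Ctsl differed by 0.74. Without the 2 arrays with high Gapdh differences 28 lysosome genes were shared and higher, and leaving out any single array gave 24 to 27.

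Subunits of the vacuolar ATPase, the proton pump that acidifies lysosomes, were shared and higher in 9 of 13 cases and lower in 0. Atp6ap2, an accessory subunit, had 10.80, 10.80 and 10.90 in deficient CD4 cells at 0 h, against 10.10, 10.13 and 10.06 in wild-type cells. At 4 h it had 10.80, 10.72 and 10.68 in deficient and 9.87, 9.92 and 9.80 in wild-type cells, and in CD8 cells 10.92 and 10.80 in deficient against 10.21 and 10.06 in wild-type ones. The arrays of each group lay close together, and the average was 0.78 ± 0.05 (adjusted p = 3.70e-08). The membrane-sector subunits Atp6v0d1 and Atp6v0b averaged 0.72 ± 0.06 and 0.60 ± 0.07, and the cytosolic-sector subunit Atp6v1d 0.57 ± 0.06. Of 21 autophagy genes 4 were shared and higher, namely Gabarapl1 (0.69 ± 0.09), Gabarap (0.38 ± 0.06), Atg9a (0.41 ± 0.07) and Atg5 (0.32 ± 0.08), and 3 were lower, namely Ulk2 (-0.30), Nbr1 (-0.28) and Tax1bp1 (-0.25). Without wild-type CD8 replicate 1, 0 autophagy genes were shared and lower. With the probe sets of a gene averaged, Atp6v0b differed by 0.36 and Atg5 by 0.15. The Atg9a difference was 1.10 in CD8 cells and 0.05 and 0.10 in CD4 cells (F test, adjusted p = 0.0097), and with 1 genotype term for all conditions it was 0.33 and not called (adjusted p = 0.0887).

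The core of the CLEAR element, TCACGTGA, which factors of the TFEB and TFE3 family are known to bind in lysosome genes, was looked for on both strands of RefSeq promoter windows (GRCm38.p6, 250 bases before to 50 after a gene's start). It contains the E-box core CACGTG and is its own reverse complement. It was found for 1.12% of the 27025 genes in the promoter table, for 227 of 13605 tested genes with a window (1.67%; with 79.6% of tested genes having one, just short of the 80% asked of such a share), for 43 of 1318 shared higher genes with a window (3.26%, 81.8% of the genes having one) and for 18 of 935 shared lower genes (1.93%, 80.8% having one). Of 26 shared higher lysosome genes 23 had a window and 5 held the motif (21.7%), against 5 of the 31 with a window among all 37 lysosome genes (16.1%). These are Ctsd, Ctsa, Gla, Mcoln1 and Cln3, with averages of 0.80, 0.66, 1.10, 0.41 and 0.58. A match describes these letters and is no evidence of binding. None of the 9 shared higher mTORC1 control genes, Rragd included, held it. Windows of 3 of these genes and of Atp6v0d1 are shown 5′ to 3′ on the gene's strand with the motif in capitals, to show how it sits relative to the start: at -228 and -195 in Gla (chrX:134600956-134601255, minus strand), at -13 and 4 in Ctsa (chr2:164833523-164833822, plus strand), at -99 in Ctsd (chr7:142387778-142388077, minus strand) and at -4 in Atp6v0d1 (chr8:105566015-105566314, minus strand).
Gla: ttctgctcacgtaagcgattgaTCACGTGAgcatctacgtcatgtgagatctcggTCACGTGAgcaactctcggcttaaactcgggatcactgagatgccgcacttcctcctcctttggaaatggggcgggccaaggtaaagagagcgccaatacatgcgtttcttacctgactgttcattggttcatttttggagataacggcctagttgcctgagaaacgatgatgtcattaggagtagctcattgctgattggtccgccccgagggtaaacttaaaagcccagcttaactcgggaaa
Ctsa: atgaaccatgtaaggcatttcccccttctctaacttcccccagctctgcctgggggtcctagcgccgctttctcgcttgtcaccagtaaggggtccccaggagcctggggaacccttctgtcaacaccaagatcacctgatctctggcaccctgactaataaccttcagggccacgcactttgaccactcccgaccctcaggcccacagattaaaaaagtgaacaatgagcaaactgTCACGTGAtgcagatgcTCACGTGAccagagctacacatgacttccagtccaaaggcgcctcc
Ctsd: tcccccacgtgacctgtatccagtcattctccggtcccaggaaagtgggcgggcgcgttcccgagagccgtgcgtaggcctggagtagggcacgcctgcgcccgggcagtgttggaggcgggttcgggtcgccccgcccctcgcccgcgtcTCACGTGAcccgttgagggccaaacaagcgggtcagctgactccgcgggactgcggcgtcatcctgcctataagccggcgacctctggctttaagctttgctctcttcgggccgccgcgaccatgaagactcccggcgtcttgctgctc
Atp6v0d1: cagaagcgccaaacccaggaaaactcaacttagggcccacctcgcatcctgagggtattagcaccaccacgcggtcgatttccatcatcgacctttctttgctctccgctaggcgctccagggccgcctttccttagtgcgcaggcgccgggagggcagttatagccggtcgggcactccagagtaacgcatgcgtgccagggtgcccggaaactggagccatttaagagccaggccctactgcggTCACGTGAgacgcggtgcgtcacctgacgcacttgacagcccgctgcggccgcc

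Sterol synthesis genes were shared and higher in 15 of 19 cases and lower in 0, with a median of 0.48. Cyp51, a lanosterol demethylase, had 7.10, 7.42 and 7.10 in deficient CD4 cells at 0 h, against 5.70, 6.05 and 5.99 in wild-type cells. After 4 h the values were 6.34, 6.5 and 6.37 in deficient and 6.05, 5.70 and 5.63 in wild-type cells, and in CD8 cells 6.88 and 6.44 in deficient against 5.17 and 5.23 in wild-type ones. Deficient values were higher in each condition, though the gap was narrowest at 4 h, and the average was 1.12 ± 0.09 (adjusted p = 1.80e-07). The mevalonate pathway genes Mvd and Fdps averaged 0.73 ± 0.07 and 0.58 ± 0.11, and Insig1, which retains SREBP precursors in the endoplasmic reticulum, 0.67 ± 0.09. Fatty acid synthesis genes were shared and higher in 5 of 16 cases and lower in 1, Hsd17b12 (-0.20). The elongases Elovl6 and Elovl1 averaged 0.66 ± 0.10 and 0.46 ± 0.07, the desaturase Fads1 0.66 ± 0.09 and the synthase Fasn 0.32 ± 0.07. With the probe sets of a gene averaged, Cyp51 differed by 0.64 and Fads1 by 0.41. The list's median was 0.20 and 0.32 in CD4 cells at 0 h and 4 h and -0.02 in CD8 cells.

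**Figure D4:**
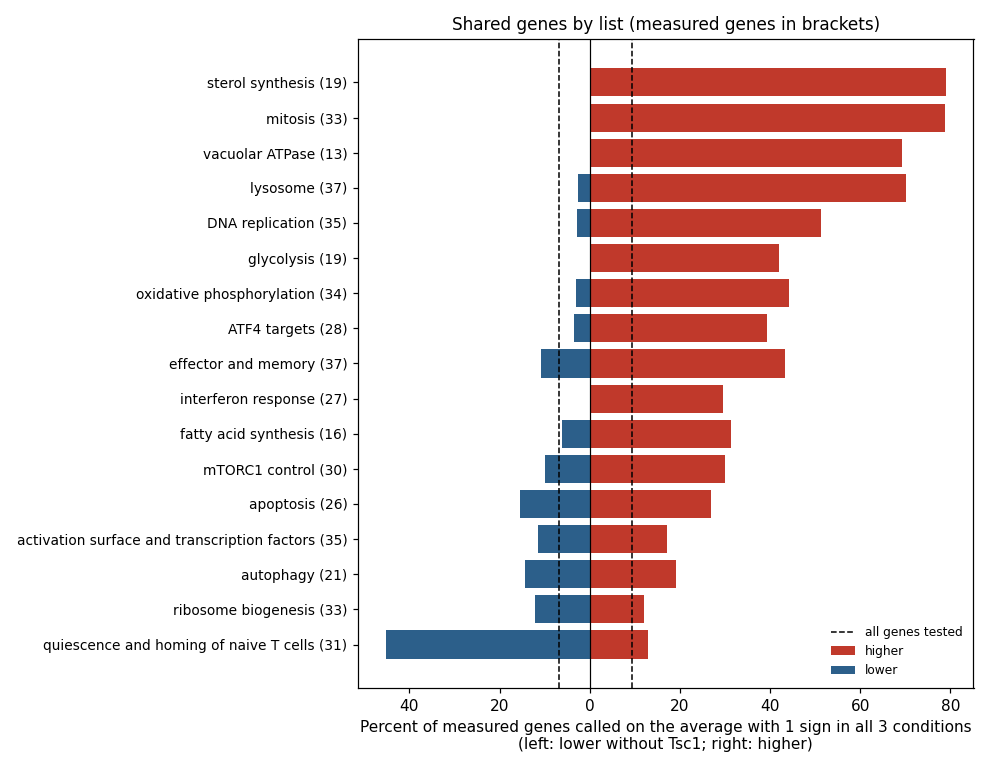
Percent of the measured genes of each list that were called on the average with 1 sign in all 3 conditions, higher in deficient cells to the right (red) and lower to the left (blue). Dashed lines give the same for all genes tested, 9.42% and 6.77%. Sterol synthesis, mitosis, vacuolar ATPase and lysosome genes reach furthest right, and naive T cell quiescence and homing genes furthest left.

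Mitosis genes were shared and higher in 26 of 33 cases and lower in 0, with a median of 0.57 and medians of 0.48, 0.54 and 0.67 in CD4 cells at 0 h, CD4 cells at 4 h and CD8 cells. Mki67, the proliferation marker Ki-67, had 5.76, 5.84 and 5.43 in deficient CD4 cells at 0 h, against 3.84, 3.97 and 4.17 in wild-type cells. Stimulated CD4 cells had 5.50, 5.91 and 5.25 in deficient and 3.20, 3.39 and 3.28 in wild-type cells, and in CD8 cells 6.52 and 6.83 in deficient against 3.69 and 3.69 in wild-type ones. The genotypes were separate in each condition, and the difference was unequal, 1.68 ± 0.15, 2.26 ± 0.15 and 2.99 ± 0.19 (F test, adjusted p = 0.0248). Ube2c, the ubiquitin-conjugating enzyme of the anaphase-promoting complex, averaged 2.09 ± 0.19, the survivin gene Birc5 1.84 ± 0.16 and the topoisomerase Top2a 1.62 ± 0.12. Wild-type values of Ube2c and Birc5 lay between 2.54 and 3.68, around the table median, so the size of these folds is uncertain. With its probe sets averaged, Top2a differed by 0.78.

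DNA replication genes were shared and higher in 18 of 35 cases and lower in 1, the licensing factor Cdt1 (-0.19). Rrm2, the small subunit of ribonucleotide reductase, had 5.18, 5.26 and 5.44 in deficient CD4 cells at 0 h, against 3.66, 3.42 and 3.64 in wild-type cells. Deficient CD8 cells had 6.29 and 5.74 and wild-type CD8 cells 3.38 and 3.68, again without overlap, and its average was 1.92 ± 0.11 (adjusted p = 4.73e-09). The transcription factor gene E2f2 averaged 1.62 ± 0.10, Uhrf1, which recruits the maintenance DNA methyltransferase, 1.5 ± 0.11 and the thymidine kinase Tk1 0.82 ± 0.16. The replicative helicase subunits had averages of -0.15 for Mcm2, 0.21 for Mcm3, 0.05 for Mcm4, 0.32 for Mcm5, 0.13 for Mcm6 and -0.19 for Mcm7, of which Mcm5 alone was shared.

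The cell cycle homology region TTTGAA, which the DREAM and MuvB complexes are known to bind in late cell cycle genes, was found in windows of 20.2% of the 27025 genes in the promoter table, of 15.6% of the 13605 tested genes with a window, of 16.7% of the shared higher genes with a window and of 13% of the shared lower ones. The shared higher genes thus lay below the table and slightly above the tested genes, and nothing is read from their share. Of the 26 shared higher mitosis genes 21 had a window (80.8%) and 17 of those held it (81.0%), while CCAAT was found in 19 of the 21 (90.5%), against 41.1% of the table and 42.3% of the tested genes. Of all 33 measured mitosis genes, shared or not, 26 had a window (78.8%), of which 21 held TTTGAA (80.8%) and 22 CCAAT (84.6%), shares close to those of the shared members. Both motifs are known features of such genes in general. Windows of Ube2c (chr2:164769679-164769978, plus strand) and Mki67 (chr7:135716330-135716629, minus strand), the members with the largest averages, are shown 5′ to 3′ with TTTGAA or its reverse complement TTCAAA in capitals, at -29 in Ube2c and at -116 and -98 in Mki67.
Ube2c: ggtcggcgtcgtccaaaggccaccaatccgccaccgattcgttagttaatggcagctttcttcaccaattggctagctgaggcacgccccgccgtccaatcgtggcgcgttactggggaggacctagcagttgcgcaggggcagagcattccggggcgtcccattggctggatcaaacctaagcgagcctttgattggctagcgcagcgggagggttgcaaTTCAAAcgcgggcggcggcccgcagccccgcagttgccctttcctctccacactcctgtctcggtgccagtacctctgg
Mki67: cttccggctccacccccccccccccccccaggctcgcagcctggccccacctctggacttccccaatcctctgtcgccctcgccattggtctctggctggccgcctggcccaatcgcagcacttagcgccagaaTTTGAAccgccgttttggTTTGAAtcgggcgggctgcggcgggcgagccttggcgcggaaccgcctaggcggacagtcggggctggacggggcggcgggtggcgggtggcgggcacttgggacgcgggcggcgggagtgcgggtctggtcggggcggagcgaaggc

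Targets of ATF4, the amino acid response factor, were shared and higher in 11 of 28 cases and lower in 1, the isoleucyl-tRNA synthetase Iars (-0.25). Psph, the last enzyme of serine synthesis, had 8.24, 8.14 and 8.07 in deficient CD4 cells at 0 h, against 7.51, 7.55 and 7.52 in wild-type cells, and averaged 0.72 ± 0.08. The pseudokinase Trib3 averaged 0.72 ± 0.07, and the tRNA synthetases Aars and Wars 0.63 ± 0.08 and 0.60 ± 0.09. Atf4 averaged -0.21 without being shared. The amino acid transporters of the list, Slc7a1, Slc7a3, Slc7a5, Slc7a11, Slc3a2 and Slc38a2, averaged between -0.23 and 0.10, and 0 of these 6 were shared.

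Glycolysis genes were shared and higher in 8 of 19 cases and lower in 0. Aldoc, an aldolase, had 5.78, 5.89 and 5.39 in deficient CD4 cells at 0 h, against 4.01, 4.03 and 4.41 in wild-type cells, and averaged 1.26 ± 0.09 (adjusted p = 9.37e-08). Tpi1 averaged 0.59 ± 0.08, Gapdh 0.38 ± 0.06 and the lactate transporter Slc16a1 0.39 ± 0.11, the last not called with its probe sets averaged (0.17), when Aldoc differed by 0.69. The glucose transporters Slc2a1 and Slc2a3 averaged -0.06 and -0.03 and were not shared. Oxidative phosphorylation genes were shared and higher in 15 of 34 cases and lower in 1, Sdha (-0.24), with Uqcrq, Cox5b, Sdhd and Ndufs8 at 0.50 ± 0.06, 0.48 ± 0.06, 0.42 ± 0.09 and 0.35 ± 0.06. With the probe sets of a gene averaged, Uqcrq differed by 0.08 and was not called (adjusted p = 0.33), and Cox5b differed by 0.22. Without wild-type CD8 replicate 1, 9 of the 34 were shared and higher.

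Ribosome biogenesis genes went neither way as a list. Of 33, 4 were shared and higher and 4 lower, near the shares of all genes, with a median of -0.01. The assembly factor Wdr12 averaged 0.74 ± 0.08, with 1.05 and 1.01 at rest in CD4 and CD8 cells and 0.17 at 4 h (F test, adjusted p = 0.0222). Utp20 averaged -0.43 ± 0.06 and was called in each condition, and the nucleolar proteins Ddx21 and Npm1 averaged -0.39 ± 0.09 and -0.39 ± 0.12. The others were Pes1 (0.36), Nhp2 (0.29) and Rrn3 (0.27), which were higher, and Gar1 (-0.27), which was lower. With the probe sets of a gene averaged Ddx21 differed by -0.18, and Npm1, whose call was lost in 5 of 27 alternatives, by -0.22 without the 2 arrays with high Gapdh differences. Myc averaged -0.33 and was not shared.

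Genes of naive T cell quiescence and homing were shared and lower in 14 of 31 cases and higher in 4, with a median of -0.21. Besides Igfbp4, the largest members were S1pr1 (-0.61 ± 0.09), the receptor for lymph node exit, and 2 that rose, Ccr9 (2.35 ± 0.12), which guides cells to the gut, and Tob1 (0.93 ± 0.09), an antiproliferative protein. Tob1 had 10.10, 10.32 and 10.41 in deficient CD4 cells at 0 h, against 8.84, 9.35 and 9.33 in wild-type cells. S1pr1 differed by -0.39 and -0.15 at rest in CD4 and CD8 cells and by -1.28 at 4 h (F test, adjusted p = 0.0176). Transcription factors of the naive state had smaller differences, with averages of -0.55 for Bach2, -0.38 for Lef1, -0.30 for Klf2 and -0.21 for Foxo3, while Foxo1 averaged -0.03 without a call. Without deficient CD8 replicate 2, 8 of the 31 genes were shared and lower.

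Effector and memory genes were shared and higher in 16 of 37 cases and lower in 4. Gzma, granzyme A, had 5.48, 6.47 and 6.22 in deficient CD4 cells at 0 h, against 5.04, 4.78 and 4.76 in wild-type cells. After stimulation the values were 4.19, 5.74 and 4.57 in deficient and 3.07, 2.98 and 3.62 in wild-type cells, and in CD8 cells 6.14 and 6.02 in deficient against 4.51 and 4.92 in wild-type ones. The groups did not overlap, and the average was 1.39 ± 0.19 (adjusted p = 7.90e-05). Cxcr3, a chemokine receptor of effector cells, averaged 1.35 ± 0.16, and the transcription factor Eomes 1.18 ± 0.22, with 1.20, 1.76 and 0.56 in the 3 conditions. The 4 lower genes were Il18r1 (-0.81), the perforin gene Prf1 (-0.65), Cd44 (-0.45, with -1.0, -0.02 and -0.32 in the 3 conditions), whose protein is a marker of antigen-experienced cells, and Id2 (-0.43). Prf1 differed by -0.35 with its probe sets averaged. NK or NKT cell markers, which include Gzma and Prf1, had summed signals of 220 to 258, 83 to 128 and 259 to 340 in deficient cells, against 202 to 231, 73 to 84 and 294 to 317 in wild-type cells, for CD4 0 h, CD4 4 h and CD8, and their part in these values was not tested.

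Activation surface and transcription factor genes were shared and higher in 6 of 35 cases and lower in 4. Bhlhe40 and the signal inhibitors Socs2 (0.57 ± 0.12) and Socs3 (0.55 ± 0.18) were higher. The Socs3 call was lost in 15 of 27 alternatives, with adjusted p up to 0.13, and Socs2 differed by 0.25 with its probe sets averaged. Nab2, a corepressor of EGR factors, was lower (-0.78 ± 0.11), with -1.64 at 4 h against -0.17 and -0.51 at rest (F test, adjusted p = 0.0125). The other 3 lower genes were Egr1 (-0.47), Bcl6 (-0.46) and the early activation marker Cd69 (-0.43). Apoptosis genes were shared and higher in 7 of 26 cases and lower in 4. The inflammatory caspases Casp1 and Casp4 averaged 1.05 ± 0.15 and 0.92 ± 0.16, and the death-promoting BCL2 family genes Bak1, Bad and Bcl2l11 averaged 0.62 ± 0.09, 0.48 ± 0.08 and 0.39, with the survival gene Bcl2l1 at 0.42. The 4 lower genes were Casp8 (-0.44), Bcl2 (-0.32), Xiap (-0.24) and Birc3 (-0.23). Bak1 differed by 0.36 with its probe sets averaged. Without wild-type CD8 replicate 1 or without the 2 arrays with high Gapdh differences, 1 apoptosis gene was shared and lower.

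Interferon response genes were shared and higher in 8 of 27 cases and lower in 0, but their medians were unequal, -0.05 in CD4 cells at 0 h, 0.85 at 4 h and 0.13 in CD8 cells. Oas1g averaged 0.99 ± 0.15, Oas3 0.87 ± 0.20, and the GTPases Gbp3 and Gbp2 0.83 ± 0.17 and 0.61 ± 0.16. The Gbp2 call was lost in 2 of 27 alternatives. None of the 8 was called in all 3 conditions, and without wild-type CD8 replicate 2, 3 were shared. The median of the list was thus largest at 4 h.

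The average hides unequal differences for some genes. By the F test among conditions 268 genes differed, 1.57% of those tested, 94 of them shared and 17 called in all 3. Without wild-type CD4 4 h replicates 1, 2 or 3, wild-type CD4 0 h replicate 2, or wild-type CD8 replicates 1 or 2, in turn, the number was 167, 144, 178, 176, 154 and 153. A p over the threshold does not show that the 3 differences are equal. The 5 widest among the 17, chosen for their spread, were Igfbp4, Ccr9, Myl10, Fam221a and Hpgds. Ccr9 had 10.63, 10.67 and 10.52 in deficient CD4 cells at 0 h, against 6.94, 6.65 and 6.41 in wild-type cells. After 4 h Ccr9 had 5.27, 6.32 and 5.69 in deficient and 3.80, 3.67 and 3.71 in wild-type cells. Deficient CD8 arrays had 11.70 and 11.92 and wild-type CD8 arrays 10.68 and 10.78. The resting deficient CD4 values were thus close to the wild-type CD8 values, and the differences were 3.94 ± 0.19, 2.04 ± 0.19 and 1.08 ± 0.23 (F test, adjusted p = 0.000156).

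Fam221a had 8.43, 8.52 and 8.53 in deficient CD4 cells at 0 h, against 4.83, 4.85 and 4.72 in wild-type cells, with differences of 3.69, 1.35 and 3.45 (F test, adjusted p = 9.78e-05). Hpgds, a prostaglandin D synthase, differed by 3.01, 0.69 and 2.21 (adjusted p = 0.000452), with 4 h values of 3.08 to 3.32 in deficient and 2.32 to 2.61 in wild-type cells, below the table median. Myl10, a myosin light chain gene, had 7.77 and 7.33 in deficient CD8 cells, against 3.52 and 3.79 in wild-type cells, and differed by 2.27, 1.11 and 3.90 (adjusted p = 0.000107). In 4 of these 5 genes the absolute CD4 difference at 4 h was the smallest of the 3 by over 1 log2 unit, and in Ccr9 the CD8 difference was the smallest.

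**Figure D5:**
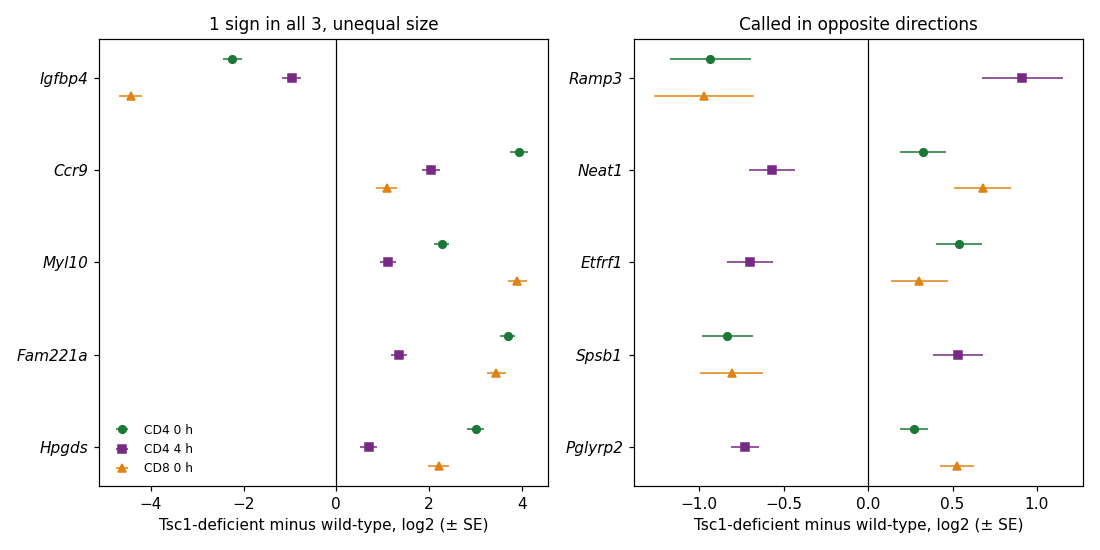
Genotype differences in log2 units with SE for the 5 genes called in all 3 conditions with the widest spread (left) and for 5 genes called in opposite directions (right), in CD4 cells at 0 h (circles), CD4 cells at 4 h (squares) and CD8 cells (triangles). On the right the CD4 4 h point lies across 0 from both resting points in each gene.

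Opposite calls in 2 conditions were made for 20 genes, 0.117% of those tested. In the 5 named by the smaller of their opposite differences, CD4 cells at 4 h stood against both resting comparisons. Ramp3, a receptor activity-modifying protein, had 9.57, 9.73 and 8.49 in deficient CD4 cells at 4 h, against 8.09, 8.51 and 8.44 in wild-type cells, a difference of 0.91 ± 0.24. At rest it had 5.0, 4.95 and 5.24 in deficient against 5.97, 6.05 and 5.98 in wild-type CD4 cells, and 4.31 and 3.66 in deficient against 4.90 and 5.01 in wild-type CD8 cells, differences of -0.93 and -0.97. Spsb1, a SOCS box protein gene, followed the same pattern at -0.83, 0.53 and -0.81. The noncoding RNA Neat1 (0.33, -0.57 and 0.68), Etfrf1 (0.54, -0.70 and 0.30) and the peptidoglycan amidase Pglyrp2 (0.27, -0.73 and 0.52) had the other signs. With the probe sets of a gene averaged, the 4 h differences of Etfrf1 and Spsb1 were -0.52 and 0.15 and not called. Over 26 alternatives the 4 h call was lost in 6 for Ramp3 (adjusted p up to 0.108), in 9 for Spsb1 (up to 0.425), in 2 for Neat1 and in 1 for Etfrf1. For Ramp3 these include leaving out the 2 arrays with high Gapdh differences (0.76, adjusted p = 0.0788) and leaving out deficient CD4 4 h replicate 1 or 2. Pglyrp2 had 4.23, 4.24 and 4.15 in deficient cells at 4 h, against 4.90, 4.98 and 4.92 in wild-type cells, and so was separate there as well. The count of 20 depended on single arrays. It was 9, 6 and 8 without wild-type CD4 4 h replicates 1, 2 and 3, 12 and 10 without wild-type CD4 0 h replicates 2 and 3, and 11 without wild-type CD8 replicate 1. It was 41 and 10 without deficient CD4 4 h replicates 1 and 2, and 10 and 13 without deficient CD4 0 h replicates 2 and 3.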

How the data were processed

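The values are log2 signals per probe set that the authors deposited for 16 Affymetrix arrays, made with Partek 6.5 and RMA per the submitters' processing notes. No build is named in the sources used here. Of 45141 probe sets, 28898 name 1 gene in the platform annotation, 551 name several, 15588 name none and 104 are controls. The 28898 represent 17097 genes, each read through its probe set with the highest mean. Of the probe sets with 1 gene, 28689 matched RefSeq by Entrez ID.

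A mean per group was fitted to all 16 arrays with limma 3.58.1 (R 4.3.3), giving 10 residual degrees of freedom. The average of the 3 genotype differences, each difference, and an F test among them were tested with eBayes and Benjamini-Hochberg adjustment over all 17097 genes, at a threshold of 0.05. The number of arrays, 2 or 3 per group, limits the precision. Replicates correlated at 0.992 to 0.997, and no arrays held identical values. The fit was tested on simulated data before use.

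Named genes are the first 15 in each direction by the smallest of 3 absolute differences, among shared genes with no overlap between genotypes in any condition and a higher genotype mean above the table median of 3.36. They also include Tsc1, up to 4 shared members per gene list by absolute average, 5 genes with opposite calls, and 5 called in all 3 conditions that pass the F test. The gene lists (17 pathway and 12 marker lists, with 570 of 660 entries measured) and the comparison itself were chosen with earlier results of these data known. Promoter windows came from RefSeq (GRCm38.p6) by gene symbol. Alternatives covered the probe set per gene, dim genes, normalization, the variance model, array weights, the Gapdh control difference, the weighting of conditions, a replicate block, each array left out, a 2-fold threshold and adjustment over all probe sets. As a check of pairing, the deviations of CD4 arrays with consecutive title codes within a genotype correlated at 0.0301 to 0.0769 over 6 pairs. The main fit did not treat these arrays as paired. A correlation over all genes cannot tell whether they share cells. The summed neutrophil marker signal was highest in replicate 3 of each CD4 group.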

Additional observations from a re-analysis of the deposited data

Results flagged for a closer look

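For 17 of the named genes the genotype difference, Tsc1-deficient minus wild-type, differed among the 3 conditions by limma's F test, and their differences are given here for CD4 cells at 0 h, CD4 cells at 4 h and CD8 cells, in that order. Several were named because of that spread, so their number carries no weight.

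Among the shared genes that were higher, Mki67 had 1.68, 2.26 and 2.99 (adjusted p = 0.0248), and Castor2 had 0.80, 0.50 and 1.68 (adjusted p = 0.0142). Lamp2 had 1.18, 0.49 and 1.51 (adjusted p = 0.0155). Atg9a had 0.05, 0.10 and 1.10 (adjusted p = 0.0097), and so its average came from CD8 cells. Wdr12 had 1.05, 0.17 and 1.01 (adjusted p = 0.0222). Ccr9 had 3.94, 2.04 and 1.08 (adjusted p = 0.000156), and Myl10 had 2.27, 1.11 and 3.90 (adjusted p = 0.000107). For Fam221a the differences were 3.69, 1.35 and 3.45 (adjusted p = 9.78e-05), and for Hpgds they were 3.01, 0.69 and 2.21 (adjusted p = 0.000452).

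Among the shared genes that were lower, Igfbp4 had -2.24, -0.96 and -4.44 (adjusted p = 9.78e-05). The other two were S1pr1, with -0.39, -1.28 and -0.15 (adjusted p = 0.0176), and Nab2, with -0.17, -1.64 and -0.51 (adjusted p = 0.0125). These last differences were largest in stimulated CD4 cells.

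The 5 genes with opposite calls changed sign between stimulated CD4 cells and both resting comparisons. Ramp3 had -0.93, 0.91 and -0.97 (adjusted p = 0.0115), and Spsb1 had -0.83, 0.53 and -0.81 (adjusted p = 0.00415). Neat1 had 0.33, -0.57 and 0.68 (adjusted p = 0.0102). Etfrf1 had 0.54, -0.70 and 0.30 (adjusted p = 0.00684), and Pglyrp2 had 0.27, -0.73 and 0.52 (adjusted p = 9.78e-05).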

How the results depend on the processing

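All 30 ranked genes kept their direction and call in each of 27 alternatives with the same threshold, as did 68 of the 79 other named genes called on the average (Klra8 over 26, being left out with the dim genes), and none of either set reversed. Apart from Tsc1, these genes were chosen on these same values among called genes, the 30 also for separate arrays. That choice favoured keeping the call, so it is little evidence of robustness. At 2-fold, 25 of the 30 and 20 of the 79 remained. Averaging the probe sets of a gene moved 4 of the 30 and 19 of the 79 by over 1.5 times. With each array left out in turn, genes called on the average numbered 2313 to 3188 (3033 with all arrays), shared genes 2159 to 2847 (2768), genes called in all 3 conditions 136 to 321 (257), genes differing among conditions 144 to 385 (268) and opposite calls 6 to 41 (20). Genes called in the condition left out numbered 241 to 768 for CD8 cells (627), 509 to 722 for CD4 cells at 4 h (681) and 444 to 839 at 0 h (676). Opposite calls numbered 34 with dim genes left out, 31 with the Gapdh difference as a covariate, 42 without the 2 arrays with high Gapdh differences and 7 with p adjusted over all probe sets. Genes differing among conditions numbered 419 and 154 under the last pair of settings. Without those 2 arrays, 1039 of the genes chosen on the other pair of conditions were called in CD4 cells at 0 h, in place of 676. A 2-fold threshold left 126 genes on the average, the same number shared (126), and 42 called in all 3. The cause of these shifts was not tested, apart from the stricter thresholds and fewer arrays themselves. Under the replicate block of consecutive CD4 title codes, 2728 genes were shared and 257 called in all 3, and no count moved by over 1.5 times. That block used a single correlation for all genes, so it does not cover genes with stronger pairing. The probe set chosen for a gene and signals near the table median limit the size of single folds.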
